A study of Mus musculus with 4 samples.

Results

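The 40 genes described here encode the pore-forming subunits of the ion channels that glutamate, GABA and glycine open. They were taken by gene symbol, from the naming series Gria, Grik, Grin, Grid, Gabr and Glr, out of the 30637 genes listed in an RNA-seq study of mouse embryonic brain. They comprise 4 AMPA, 5 kainate, 7 NMDA and 2 delta receptor genes, 17 GABA-A receptor genes and 5 glycine receptor genes. The symbol rule thus also takes the glycine and delta receptor families, which are close relatives in sequence of the GABA-A and glutamate receptors.

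The libraries were made from telencephalic tissue of C57BL/6 embryos at E13, labelled as brain, and form 2 groups of 2 libraries each. The tested animals were Pd1CKO, a conditional knockout of Pd1, the PD-1 receptor gene Pdcd1. The controls were labelled WT, while the study's design text gives them as Pd1fl/fl, which would mean that they carry the floxed allele without its deletion. The Cre line, and so the cells in which the allele was deleted, was not stated in the labels or design text, and neither were litter and sex. Libraries of both groups carry the numbers 1 and 2, and no label says what the number stands for.

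Ionotropic receptors are assemblies of several subunits around an ion channel. AMPA, kainate and NMDA receptors are tetramers that pass cations when glutamate binds, whereas GABA-A and glycine receptors are pentamers that pass chloride. In immature neurons the chloride gradient makes GABA and glycine depolarizing, and in the embryonic forebrain these receptors are present before most synapses form and are known for effects on progenitor division and neuronal migration.

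The 4 libraries held 16200000 to 18730000 fragments assigned to genes, recovered from the deposited FPKM values (fragments scaled to exon length and library depth). Libraries of the same number resembled each other more than libraries of the same genotype. Pearson's r over all genes tested was 0.978 between Pd1CKO and control for number 1 and 0.987 for number 2, against 0.912 to 0.916 between numbers. Pdcd1 did not check the genotype labels. It stood at 0 FPKM in Pd1CKO 1 and Pd1CKO 2, at 0 in control 1, and at 0.416 FPKM, or 13 fragments, in control 2. A count of 0 allows up to 3 fragments. The 4 genes fixed as marks of forebrain identity summed to 180 to 361 FPKM over the libraries, and the markers of midbrain and hindbrain to at most 0.0964 FPKM. The 4 Y-linked genes examined had 361 to 1445 fragments each in Pd1CKO 2 and at most 1 fragment in any other library, and Xist stood at 0.00308 FPKM there against 34.7 to 61.2 FPKM in the other libraries. Embryo sex therefore moves with library Pd1CKO 2, and its part in the results was not tested. This touches 6 members on the X chromosome, Gria3, Gabra3, Gabre, Gabrq, Glra2 and Glra4.

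Of the 40 receptor genes, 22 had a mean of at least 1 FPKM and entered the tests, among 13927 genes in all, and 18 lay below. None of the 22 passed the test between Pd1CKO and control embryos, and neither did any other of the genes tested. Between replicate 2 and replicate 1 libraries, 19 were higher, 1 was lower and 2 did not pass the test. Of all genes tested, 16.5% were higher and 18.5% lower. The median difference of the 22 was 0.01 in log2(FPKM + 1) for Pd1CKO minus control, beside 0.02 over all genes tested, and 0.91 for replicate 2 minus replicate 1, beside 0.03 over all genes tested. Summed over all 40 genes, expression was 259 FPKM in Pd1CKO 2 and 249 FPKM in control 2, against 139 FPKM in Pd1CKO 1 and 150 FPKM in control 1.

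**Figure D1:**
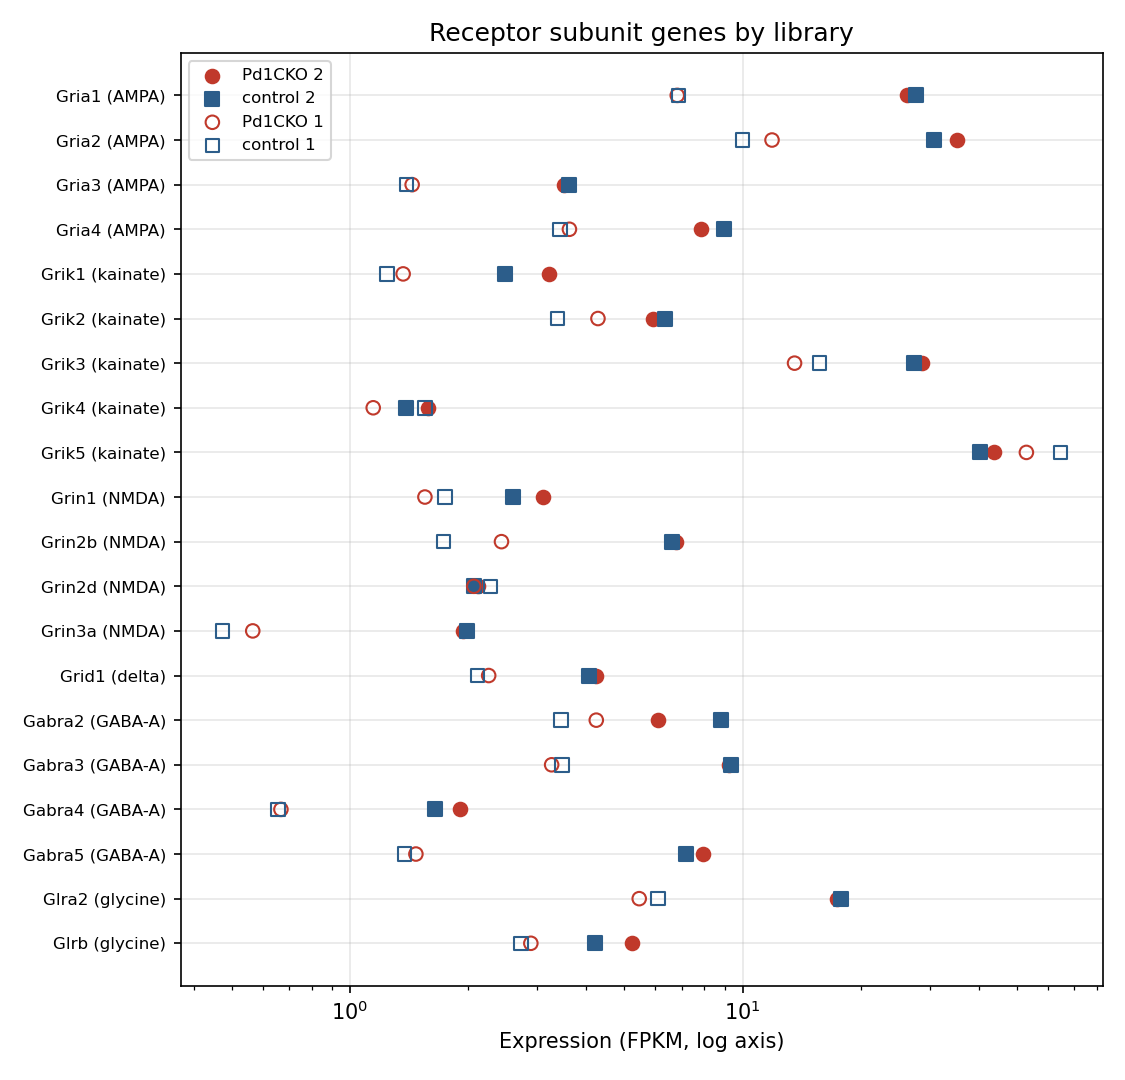
FPKM of 20 of the 22 tested receptor genes on a log axis, 1 point per library. Filled points are replicate 2 and open points replicate 1, circles are Pd1CKO and squares control. For 17 genes both filled points lie right of both open points, for Grik5 they lie left, and for Grik4 and Grin2d they overlap.

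RefSeq start-site windows of GRCm38.p6, 300 bases around each annotated start, were matched for 27 of the 40 genes. Windows of 4 members are shown because Gabra5, Gria2 and Glra2 are among the members with the largest positive differences and Grik5 is the only tested one called lower. All 4 genes are on the minus strand, each window reads 5′ to 3′ on the gene's strand, and capitals mark the match to 1 motif. They are Gria2 at chr3:80802786-80803085, Gabra5 at chr7:57510010-57510309, Glra2 at chrX:165327344-165327643 and Grik5 at chr7:25072320-25072619.
Gria2: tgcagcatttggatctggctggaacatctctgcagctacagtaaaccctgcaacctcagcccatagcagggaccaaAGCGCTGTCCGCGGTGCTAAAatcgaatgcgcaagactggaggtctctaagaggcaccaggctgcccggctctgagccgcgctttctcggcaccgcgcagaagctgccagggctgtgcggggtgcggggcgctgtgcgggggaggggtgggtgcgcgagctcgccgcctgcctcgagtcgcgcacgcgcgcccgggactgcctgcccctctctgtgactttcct
Gabra5: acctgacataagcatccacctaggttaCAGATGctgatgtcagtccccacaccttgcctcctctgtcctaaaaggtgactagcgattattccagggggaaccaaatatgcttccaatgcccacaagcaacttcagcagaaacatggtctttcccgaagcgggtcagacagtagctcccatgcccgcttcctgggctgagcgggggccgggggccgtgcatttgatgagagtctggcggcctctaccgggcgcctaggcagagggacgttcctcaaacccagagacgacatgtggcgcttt
Glra2: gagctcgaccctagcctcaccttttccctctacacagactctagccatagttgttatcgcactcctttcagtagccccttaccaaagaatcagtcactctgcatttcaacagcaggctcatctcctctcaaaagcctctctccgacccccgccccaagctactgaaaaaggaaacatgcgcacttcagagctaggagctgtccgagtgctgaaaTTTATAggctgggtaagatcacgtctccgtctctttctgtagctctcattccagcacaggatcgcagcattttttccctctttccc
Grik5: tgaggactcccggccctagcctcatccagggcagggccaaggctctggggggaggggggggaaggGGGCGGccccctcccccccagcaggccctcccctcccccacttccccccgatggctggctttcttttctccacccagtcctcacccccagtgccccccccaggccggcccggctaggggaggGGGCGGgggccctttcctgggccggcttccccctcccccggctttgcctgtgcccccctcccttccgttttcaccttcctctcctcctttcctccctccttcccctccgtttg
The capitals in Gria2 match the RE1 element, the binding site of the neuronal repressor REST, searched on both strands with at most 3 mismatches. This match has 2 mismatches. Such matches occurred in 0.0731% of the 32851 windows of all genes, and in Gria2 alone among the matched members. Those in Gabra5 match CAGATG, an E-box that NeuroD factors can bind, held by 17.2% of all windows and by 3 of the 27 member genes. The Glra2 window holds the TATA box TATAAA on the opposite strand, as do either strand of 13.6% of all windows and of 4 member genes. Grik5 holds the GC box GGGCGG at 2 places, and 35.7% of all windows and 15 member genes hold it on either strand. The cyclic AMP response element TGACGTCA was in 1.79% of all windows and in 0 member windows. Member windows had a median GC content of 58.7% and 12 CG pairs, against 52.7% and 7 in all windows. These matches describe letters in a window and are not measured binding sites.

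The study's own comparison is that of Pd1CKO with control embryos, and in it no receptor gene was called. By limma with Benjamini-Hochberg adjustment, 0 of 22 receptor genes passed an adjusted p of 0.05, and so did 0 of 13927 genes (0%). At an unadjusted p under 0.05 the counts were 0 of 22 receptor genes and 47 of all genes (0.337%). A count model on the recovered fragments (limma-voom) called 0 of 35 receptor genes and 0 of 17627 genes, with 0 receptor genes and 57 genes at an unadjusted p under 0.05. Both fits take genotype alone and leave the replicate number difference in the spread. A small p is then hard to reach for genes that differ by number, so these counts of 0 are no sign that the genotypes are alike. The 22 log2 differences ran from -0.12 for Gabra2 to 0.21 for Gria2. Their standard errors are wide, for example 0.74 for Gria2, since libraries of 1 genotype differed by number. A p above the threshold therefore does not show equal expression. With replicate number as a second term, the Gria2 difference was still 0.21 and its standard error 0.11. In that fit the standard error was 0.18 for Gabra2, 0.15 for Grin2b, 0.14 for Glrb and 0.16 for Grik1. No receptor gene was called there either (adjusted p = 0.959 for Gria2, limma). For no tested receptor gene did both Pd1CKO libraries lie on one side of both controls. Over all genes this was the case for 8.37% upwards and 6.14% downwards. Such a split cannot occur where both replicate 2 libraries lie above, or below, both replicate 1 libraries. That held for 19 and 1 of the 22 receptor genes, so their count of 0 is no sign of equal expression between genotypes.

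**Figure D2:**
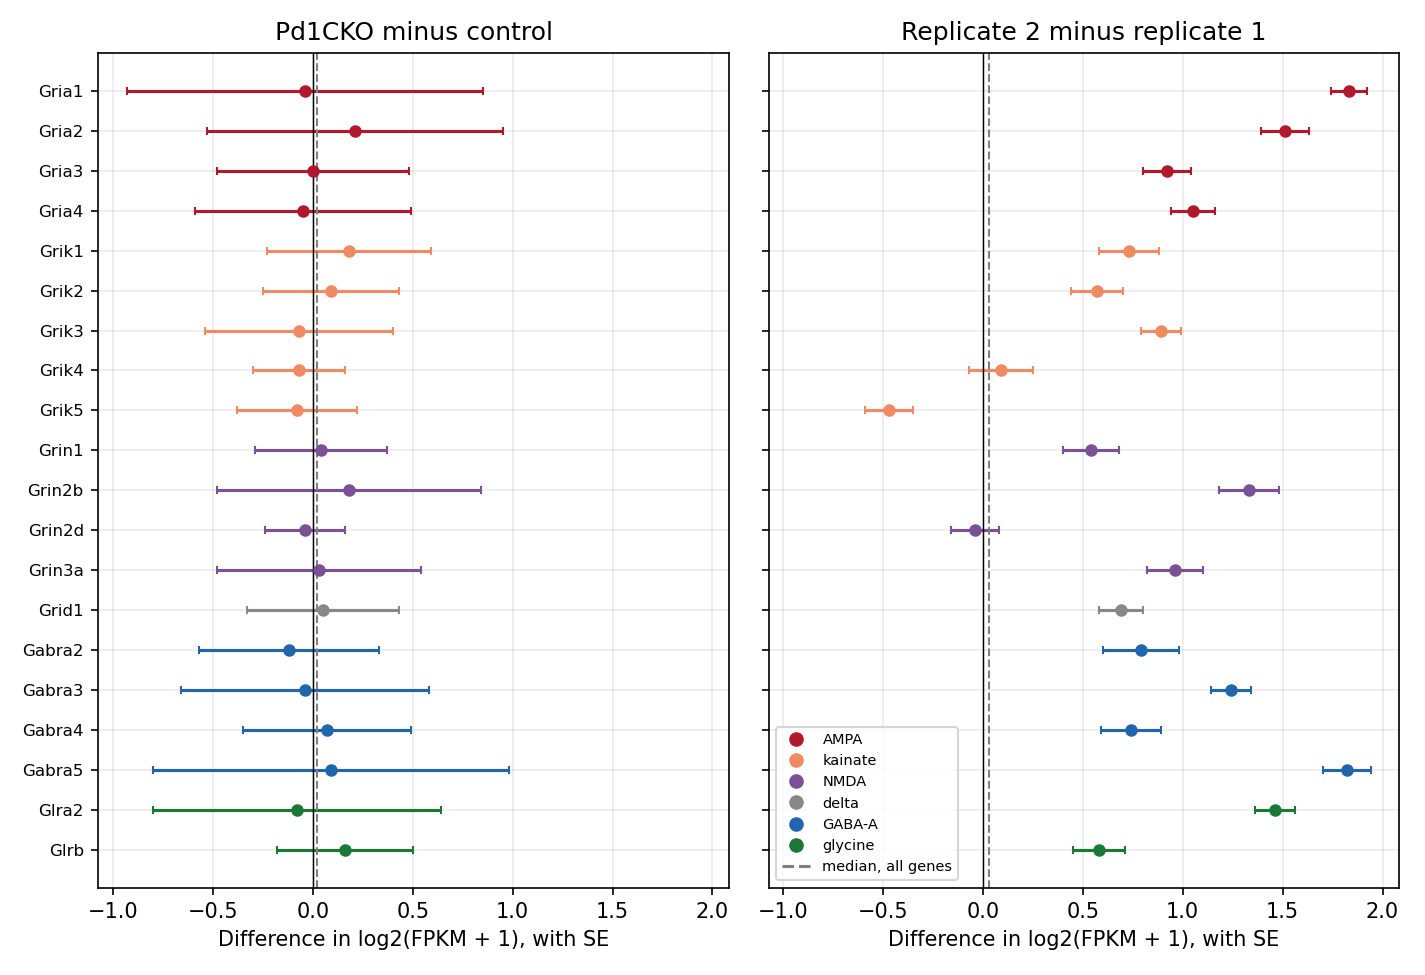
Difference in log2(FPKM + 1) of 20 of the 22 tested receptor genes with its standard error, for Pd1CKO minus control on the left and replicate 2 minus replicate 1 on the right (n = 2 libraries a side). The dashed line is the median of all genes tested. Genotype differences lie between -0.12 and 0.21, and replicate number differences between -0.47 and 1.83.

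Pairs of libraries with the same number were also set against each other. These ratios compare 2 libraries each, not genotypes, and their exact 95% intervals cover counting error only. Gria2, which encodes the AMPA subunit that makes the channel nearly impermeable to calcium, was 1.19-fold (1.13 to 1.25) in Pd1CKO 1 over control 1 and 1.14-fold (1.11 to 1.18) in Pd1CKO 2 over control 2. Gabrb2, a GABA-A beta subunit with a mean of 0.987 FPKM, was 2.67-fold (1.77 to 4.12) for number 1, from 89 fragments in Pd1CKO 1 and 33 in control 1. For number 2 it was 1.64-fold (1.30 to 2.08), from 209 fragments in Pd1CKO 2 and 114 in control 2. Those 2 of the 40 genes had an interval above 1 in both pairs, as did 2.61% of all genes, and 0 had one below 1 in both, as did 1.31% of all genes. With the filter lowered to 0.5 FPKM, Gabrb2 had a log2 difference of 0.43 ± 0.39 (SE) between genotypes and an adjusted p of 0.9999 in limma. Over all genes the genotype difference had a Spearman correlation of 0.274 with exon length and -0.309 with GC content. The genotype difference of Gria2 was 0.21, and 0.05 with length and GC trends removed.

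Gabra2, Grik5 and Grik3 went opposite ways in the 2 pairs. Gabra2, an alpha subunit of GABA-A receptors, was 1.23-fold (1.09 to 1.39) in Pd1CKO 1 over control 1 but 0.692-fold (0.632 to 0.758) in Pd1CKO 2 over control 2. Grik5, a high-affinity kainate subunit, was 0.818-fold (0.788 to 0.849) for number 1 and 1.09-fold (1.04 to 1.14) for number 2, and the kainate subunit Grik3 followed it with 0.863-fold (0.815 to 0.913) and 1.05-fold (1.01 to 1.10). Grin2b was above its control in the first pair, with an interval that held 1 in the second. This NMDA subunit gene, which encodes the main GluN2 form before birth, was 1.41-fold (1.28 to 1.54) for number 1 and 1.03-fold (0.974 to 1.08) for number 2.

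**Figure D3:**
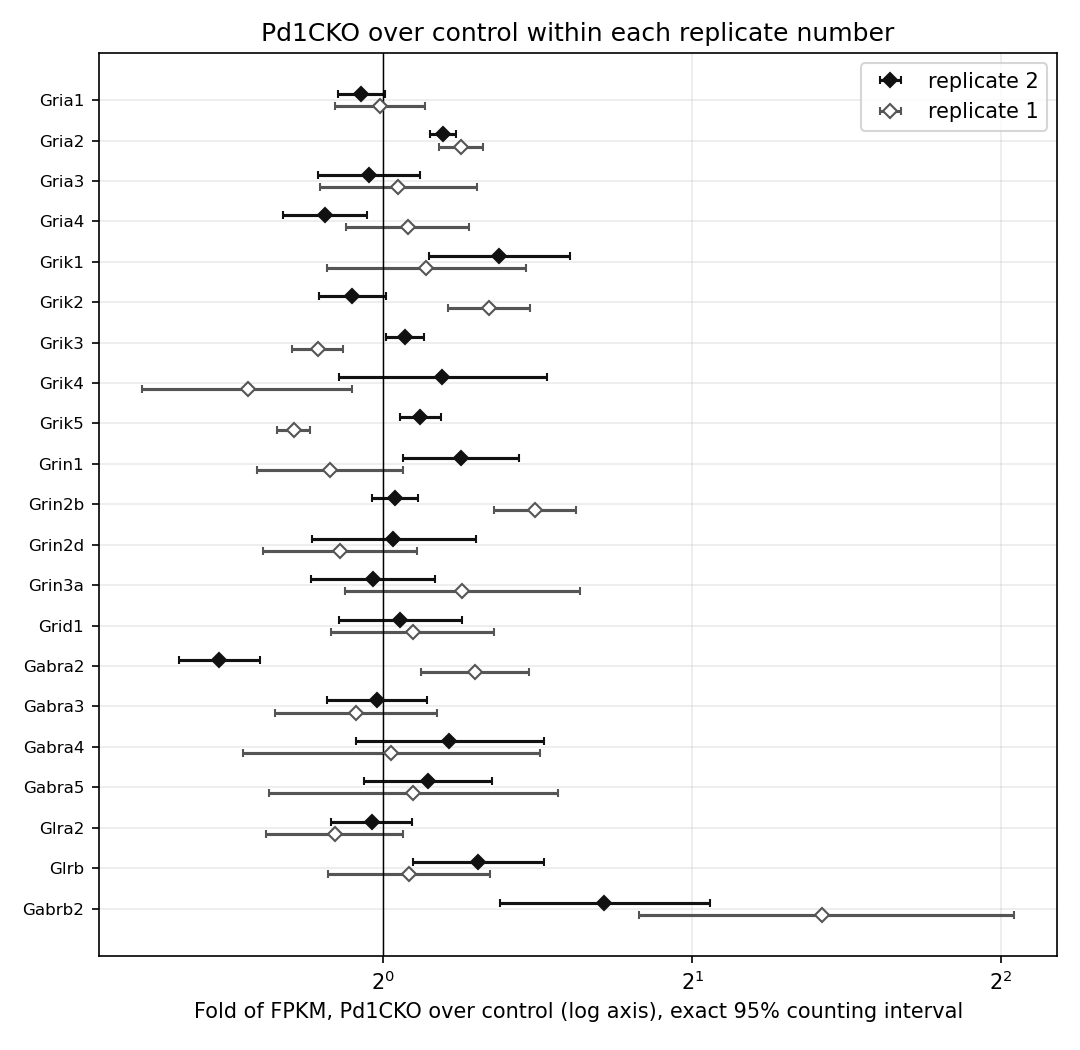
Fold of FPKM in Pd1CKO over control within replicate 2 (filled) and within replicate 1 (open), on a log axis, with exact 95% counting intervals, for 20 of the 22 tested receptor genes and Gabrb2. Gria2 and Gabrb2 lie right of 1 in both pairs, and Gabra2 lies on opposite sides.

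The difference by replicate number was much wider. In limma, 2304 of 13927 genes (16.5%) were higher and 2573 (18.5%) lower in replicate 2 than in replicate 1, where the 22 receptor genes gave 19 higher and 1 lower. On values rescaled to TPM (FPKM scaled to 1 fixed sum per library), which moves the median of all genes to 0.16, the split over all genes was 3248 higher (23.3%) and 2051 lower (14.7%), and the receptor genes gave 19 higher and 0 lower. Both replicate 2 libraries lay above both replicate 1 libraries for 19 of 22 receptor genes, beside 38.5% of all genes, and below them for 1, beside 34.1%. Without Pd1CKO 2 the receptor calls were 13 higher and 0 lower, beside 1074 higher (7.71%) and 1713 lower (12.3%) of all genes. With gene length and GC trends removed they were 18 higher and 0 lower, beside 19.6% and 17% of all genes. 12 of the 20 calls held under all 14 other settings tried, among them those of Gria1, Gria2, Gria3, Gria4, Grik3, Grin2b, Grin3a, Gabra3, Gabra5 and Glra2. Testing all listed genes with no filter ended the calls of Gabra2, Gabra4, Grin1, Glrb, Grik1, Grik2 and Grik5, with adjusted p values of 0.0542 to 0.106. Since these are bulk samples, fewer cells of a type and less RNA per cell cannot be told apart.

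AMPA receptor genes were higher in replicate 2 in all 4 cases, with a median difference of 1.28 in log2(FPKM + 1). Of all genes tested, 16.5% were called higher. Gria1 (chr11:57011387-57330244), which encodes a subunit trafficked to synapses during plasticity, had 26.3 FPKM in Pd1CKO 2 and 27.6 FPKM in control 2, against 6.82 FPKM in Pd1CKO 1 and 6.87 FPKM in control 1. This 3.94-fold ratio of means was a log2 difference of 1.83 ± 0.09 (SE, adjusted p = 0.000508) and ranked 26 of 13927 genes. Genotype pairs of the same number lay almost on top of each other. Gria2 (chr3:80681450-80802835) had 35.2 FPKM in Pd1CKO 2 and 30.8 FPKM in control 2, against 11.9 FPKM in Pd1CKO 1 and 9.99 FPKM in control 1, a log2 difference of 1.51 ± 0.12 (adjusted p = 0.00149). Gria3, and Gria4 with its fast channel kinetics, were lower in level but parted in the same way. Gria3 had 3.50 FPKM in Pd1CKO 2 and 3.62 FPKM in control 2, against 1.44 FPKM in Pd1CKO 1 and 1.39 FPKM in control 1, a log2 difference of 0.92 ± 0.12 (adjusted p = 0.0049). Gria4 had 7.85 FPKM in Pd1CKO 2 and 8.95 FPKM in control 2, against 3.62 FPKM in Pd1CKO 1 and 3.43 FPKM in control 1, with 1.05 ± 0.11 (adjusted p = 0.0029).

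Kainate receptor genes split. Grik1, Grik2 and Grik3, which can form channels on their own, were higher in replicate 2, while Grik4 and Grik5, which need one of them as a partner, were not. Grik3 (chr4:125490700-125714173) had 28.7 FPKM in Pd1CKO 2 and 27.3 FPKM in control 2, against 13.6 FPKM in Pd1CKO 1 and 15.7 FPKM in control 1 (log2 difference 0.89 ± 0.10, adjusted p = 0.00367). Grik1 had 3.21 and 2.48 FPKM in Pd1CKO 2 and control 2, against 1.37 and 1.24 FPKM in Pd1CKO 1 and control 1 (0.73 ± 0.15, adjusted p = 0.018). Grik2 had 5.92 and 6.35 FPKM in Pd1CKO 2 and control 2, against 4.28 and 3.38 FPKM in Pd1CKO 1 and control 1 (0.57 ± 0.13, adjusted p = 0.0252). Grik5 (chr7:25009849-25072346) was the most abundant receptor gene per length in every library, and the only tested member called lower in replicate 2. It had 43.9 FPKM in Pd1CKO 2 and 40.4 FPKM in control 2, against 52.9 FPKM in Pd1CKO 1 and 64.6 FPKM in control 1 (log2 difference -0.47 ± 0.12, adjusted p = 0.0362). Its call was lost on TPM values (adjusted p = 0.0574), without the filter (0.106), without Pd1CKO 2 (0.0877), without control 2 (0.205), and with gene length and GC trends removed, where the difference was -0.03. Grik4 had 1.58 and 1.39 FPKM in Pd1CKO 2 and control 2, against 1.15 and 1.55 FPKM in Pd1CKO 1 and control 1, which overlap (0.09 ± 0.16, adjusted p = 0.701). The Grik1 call was lost without Pd1CKO 2 (0.60, adjusted p = 0.123), and the Grik2 call without Pd1CKO 2 (0.61, 0.0827) or control 2 (0.52, 0.145) and with length and GC trends removed (adjusted p = 0.07).

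Among NMDA receptor genes, 3 of 4 tested were higher in replicate 2, beside 16.5% of all genes tested. Grin1 encodes the subunit present in every NMDA receptor, and had 3.10 and 2.60 FPKM in Pd1CKO 2 and control 2, against 1.55 and 1.75 FPKM in Pd1CKO 1 and control 1 (log2 difference 0.54 ± 0.14, adjusted p = 0.033). Its call was lost without Pd1CKO 1 (0.48, adjusted p = 0.0522), without Pd1CKO 2 (0.44, 0.26) or without control 2 (0.63, 0.1). Grin2b (chr6:135713233-136173511) had 6.77 FPKM in Pd1CKO 2 and 6.60 FPKM in control 2, against 2.43 FPKM in Pd1CKO 1 and 1.73 FPKM in control 1 (1.33 ± 0.15, adjusted p = 0.00314). Grin3a, whose subunit lowers calcium entry through NMDA receptors, had 1.93 and 1.98 FPKM in Pd1CKO 2 and control 2, against 0.565 and 0.474 FPKM in Pd1CKO 1 and control 1 (0.96 ± 0.14, adjusted p = 0.00709). Grin2d, the other GluN2 gene known for embryonic expression, stayed outside this split. It had 2.12 and 2.07 FPKM in Pd1CKO 2 and control 2, against 2.07 and 2.28 FPKM in Pd1CKO 1 and control 1 (-0.04, adjusted p = 0.837), but 0.61 (adjusted p = 0.0128) with length and GC trends removed. Over all genes the replicate number difference had a Spearman correlation of 0.289 with exon length and -0.278 with GC content, and what these trends add to single members was not separated further. Exons of Grin1 overlap Grin1os over 13.5% of their bases and those of Grin2d overlap Gm45441 over 9.66%. Whether counting used strand is not given, so both values may hold reads of their neighbours. The delta receptor gene Grid1, whose protein joins synaptic partners more than it passes current, had 4.22 and 4.07 FPKM in Pd1CKO 2 and control 2, against 2.26 and 2.11 FPKM in Pd1CKO 1 and control 1 (0.69 ± 0.11, adjusted p = 0.00918). That call was lost without Pd1CKO 2 (0.67, adjusted p = 0.0661) or control 2 (0.71, 0.0507).

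All 6 tested GABA-A receptor genes were higher in replicate 2, beside 16.5% of all genes tested, with a median difference of 1.15. The alpha subunits set where and how strongly GABA acts. Gabra5 (chr7:57407672-57510059), an alpha subunit of receptors often found outside synapses, had 7.91 FPKM in Pd1CKO 2 and 7.16 FPKM in control 2, against 1.47 FPKM in Pd1CKO 1 and 1.38 FPKM in control 1. Its 5.29-fold ratio of means gave a log2 difference of 1.82 ± 0.12 (adjusted p = 0.000885) and rank 27 of 13927. Gabra3, an alpha subunit prominent in immature brain, had 9.22 FPKM in Pd1CKO 2 and 9.36 FPKM in control 2, against 3.26 FPKM in Pd1CKO 1 and 3.47 FPKM in control 1 (1.24 ± 0.10, adjusted p = 0.00146). Gabra2 had 6.09 FPKM in Pd1CKO 2 and 8.80 FPKM in control 2, against 4.24 FPKM in Pd1CKO 1 and 3.45 FPKM in control 1 (0.79 ± 0.19, adjusted p = 0.0269). Of these alpha genes it varied most between libraries of the same number, and its call was lost without control 1 (0.67, adjusted p = 0.0864), without control 2 (0.55, 0.121) and with length and GC trends removed (adjusted p = 0.0635). Gabra4 had 1.91 and 1.64 FPKM in Pd1CKO 2 and control 2, against 0.667 and 0.655 FPKM in Pd1CKO 1 and control 1 (0.74 ± 0.15, adjusted p = 0.0159), a call lost without Pd1CKO 2 (0.67, 0.0925).

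Glycine receptors were represented by the fetal alpha subunit gene Glra2 and the beta subunit gene Glrb, both higher in replicate 2. Glra2 (chrX:165129017-165327393) had 17.4 FPKM in Pd1CKO 2 and 17.9 FPKM in control 2, against 5.46 FPKM in Pd1CKO 1 and 6.08 FPKM in control 1 (log2 difference 1.46 ± 0.10, adjusted p = 0.000952). Glrb, which ties glycine receptors to gephyrin, had 5.22 and 4.22 FPKM in Pd1CKO 2 and control 2, against 2.89 and 2.73 FPKM in Pd1CKO 1 and control 1 (0.58 ± 0.13, adjusted p = 0.0239). The Glrb call was lost without Pd1CKO 2 (0.45, adjusted p = 0.221) or control 1 (0.55, 0.0511).

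Of the 18 genes below the filter, 9 had both replicate 2 libraries above both replicate 1 libraries, and 1, Gabre, had them below. Over all 16710 genes below the filter these shares were 21.2% and 15.7%. These genes were not part of the test, so the counts describe levels only. Gabrd, whose delta subunit gives tonic GABA currents, had 0.845 and 0.687 FPKM (44 and 32 fragments) in Pd1CKO 2 and control 2, against 0.0743 and 0.0187 FPKM (4 and 1 fragments) in Pd1CKO 1 and control 1. Gabrb1 and Gabrg1, beta and gamma subunit genes, had 1.03 to 1.31 FPKM in replicate 2 and 0.265 to 0.382 FPKM in replicate 1. Gabrb2 had 1.82 and 1.11 FPKM in Pd1CKO 2 and control 2, against 0.747 and 0.279 FPKM in Pd1CKO 1 and control 1. Grin2a and Grin2c, GluN2 genes that mark later stages of brain development, reached at most 0.441 FPKM, while the gamma subunit gene Gabrg3 reached at most 0.481 FPKM. Gabre, a GABA-A epsilon subunit gene, went the other way with 0.455 and 0.443 FPKM in Pd1CKO 2 and control 2, against 1.25 and 1.32 FPKM in Pd1CKO 1 and control 1. Gabrq, the theta subunit gene, had 0.415 to 0.63 FPKM with no split by number. Grin3b had 0.506 to 0.674 FPKM, but shares 32.1% of its exon bases with Tmem259 on the other strand, so its reads cannot be assigned with certainty. Gabra6, Gabrr1, Gabrr2, Glra1, Glra3 and Glra4 had at most 13 fragments in every library, and Gabra6, known from adult cerebellum, had 1 fragment in all.

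Within families the subunit make-up per length also parted by replicate number for some genes, but not for others. These shares of summed FPKM carry no test, and length and GC trends were not removed from them. With those trends removed, the replicate number differences were 0.90 for Grin2b and 0.61 for Grin2d, against 1.33 and -0.04 before. For Grik5 the difference was -0.03, against -0.47 before, while Gabra5 stayed at 1.82. What these trends add to the shares was not tested. Grin2b made up 71.5% of the GluN2 sum in Pd1CKO 2 and 71.2% in control 2, against 51.5% in Pd1CKO 1 and 40.2% in control 1, and Grin2d 22.4% and 22.3% in Pd1CKO 2 and control 2, against 43.8% and 52.9% in Pd1CKO 1 and control 1. Grik5 made up 52.7% and 51.8% of the kainate sum in Pd1CKO 2 and control 2, against 72.2% and 74.7% in Pd1CKO 1 and control 1. Among GABA-A alpha genes, Gabra5 held 30.1% and 25.5% in Pd1CKO 2 and control 2, against 14.8% and 14.9% in Pd1CKO 1 and control 1. Grik3 held 34.5% and 35.1% of the kainate sum in Pd1CKO 2 and control 2, against 18.5% and 18.2% in Pd1CKO 1 and control 1, and Gabra2 held 23.2% and 31.3% of the alpha sum in Pd1CKO 2 and control 2, against 42.6% and 37.5% in Pd1CKO 1 and control 1. Shares of fragments, which are not scaled to length, were 89.8% and 89.7% for Grin2b in Pd1CKO 2 and control 2, against 79.3% and 70.8% in Pd1CKO 1 and control 1. For Gabra5 they were 18.6% and 14.9% in Pd1CKO 2 and control 2, against 7.83% and 8.20% in Pd1CKO 1 and control 1. The levels thus depend on the scale, while the order by number was the same for both genes. Fragments were recovered from the same FPKM values, so the same order is not a separate check. Gria2 was the largest AMPA share everywhere, at 43.4% to 50.0%. Its shares overlapped between numbers, with 48.3% and 43.4% in Pd1CKO 2 and control 2, against 50.0% and 46.1% in Pd1CKO 1 and control 1. Gabra3 shares of the alpha sum overlapped too, at 35.1% and 33.3%, against 32.8% and 37.7%, in the same order of libraries. Glra2 held 97.5% to 99.6% of the glycine alpha sum. The embryonic telencephalon thus held, per length, mainly Gria1 and Gria2 of the AMPA genes, Grik5 and Grik3 of the kainate genes, Gabra2, Gabra3 and Gabra5 of the GABA-A alpha genes, and Glra2 with Glrb.

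**Figure D4:**
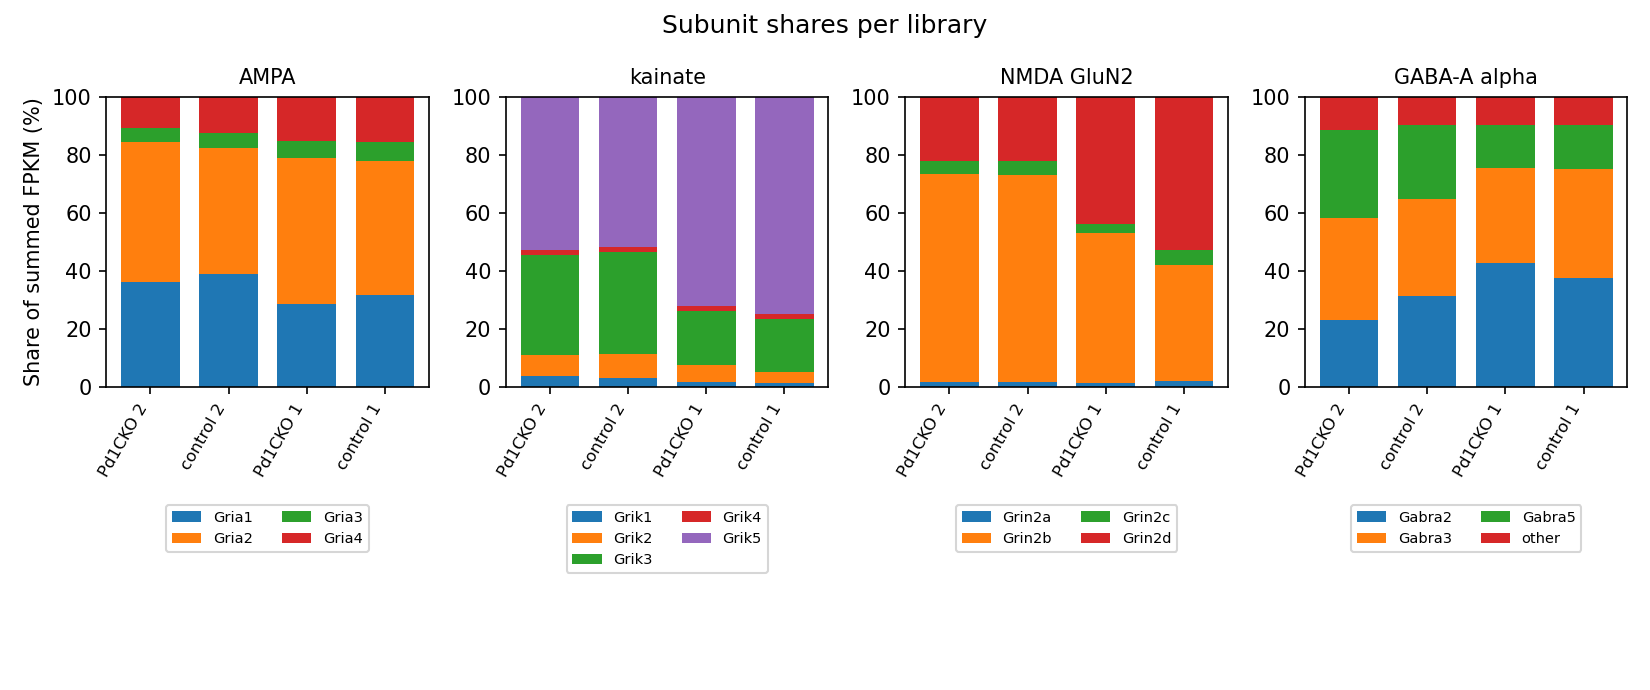
Share of each subunit gene in the summed FPKM of its family (percent) in each library, for AMPA, kainate, NMDA GluN2 and GABA-A alpha genes, with the smaller alpha shares joined as other. Grin2b holds 71.5% and 71.2% of the GluN2 sum in the replicate 2 libraries, against 51.5% and 40.2% in the replicate 1 libraries, and Grik5 takes a smaller part of the kainate sum in replicate 2. Length and GC trends were not removed from these shares.

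GABA-A genes lie in clusters in the genome, in mm10 coordinates. On chromosome 5, Gabrg1, Gabra2, Gabra4 and Gabrb1 (chr5:70751047-72149037) all had higher levels in replicate 2, and so did Gabrg3 and Gabra5 on chromosome 7. Of these, Gabrg1, Gabrb1 and Gabrg3 lay below the filter and were not tested. Both replicate 2 libraries lay above both replicate 1 libraries in 38.5% of all genes tested and in 21.2% of genes below the filter. The X cluster (chrX:72255999-72842602) was mixed, as Gabra3 was higher in replicate 2, Gabre had lower levels and Gabrq did not part.

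Genes that act with the receptors moved less evenly. All genes tested gave 16.5% higher and 18.5% lower in replicate 2. Of 16 tested auxiliary subunits of AMPA and kainate receptors, 12 were higher and 2 lower in replicate 2 (median 0.61), in limma with adjustment over all genes. The cornichon gene Cnih3, which slows AMPA receptor gating, had 12.4 and 14.9 FPKM in Pd1CKO 2 and control 2, against 3.88 and 3.74 FPKM in Pd1CKO 1 and control 1 (1.60, adjusted p = 0.00119). The kainate receptor partners Neto2 (1.06, adjusted p = 0.0029) and Neto1 (1.25, adjusted p = 0.00334) were higher as well. The 2 lower genes, Cacng8 (-1.14) and Cnih2 (-0.89), were named after their values were seen and are AMPA receptor partners too. Of 7 metabotropic glutamate and GABA-B receptor genes, 4 were higher and 0 lower, led by Grm5 with 4.52 and 4.03 FPKM in Pd1CKO 2 and control 2, against 0.880 and 0.772 FPKM in Pd1CKO 1 and control 1 (1.53, adjusted p = 0.00172). The GABA-B subunit gene Gabbr2 followed (1.34, adjusted p = 0.00256).

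Scaffolds that hold receptors at synapses gave 10 higher and 3 lower of 23 on the excitatory side (median 0.39). The inhibitory side gave 7 higher and 0 lower of 14 (median 0.47), beside 16.5% higher and 18.5% lower of all genes. The excitatory scaffold gene Dlg2, encoding PSD-93, had 8.61 and 9.60 FPKM in Pd1CKO 2 and control 2, against 2.14 and 1.89 FPKM in Pd1CKO 1 and control 1 (1.74, adjusted p = 0.000945). The AMPA receptor binding protein gene Grip2 was also higher (1.19, adjusted p = 0.00297), and Homer3, a binding partner of metabotropic receptors, was lower (-0.84, adjusted p = 0.00379). On the inhibitory side Gphn, which encodes gephyrin, had 13.6 and 14.3 FPKM in Pd1CKO 2 and control 2, against 8.14 and 8.46 FPKM in Pd1CKO 1 and control 1 (0.68, adjusted p = 0.00515).

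Genes of transmitter supply and chloride transport were counted in the same way, beside 16.5% higher and 18.5% lower of all genes. Of 8 tested genes of GABA synthesis, transport and breakdown, 4 were higher and 1 lower in replicate 2 (median 0.30). The GABA transporter gene Slc6a11 was higher (1.33, adjusted p = 0.00156) and so was the GABA-synthesizing enzyme gene Gad1, at 14.8 and 15.7 FPKM in Pd1CKO 2 and control 2, against 7.51 and 10.1 FPKM in Pd1CKO 1 and control 1 (0.74, adjusted p = 0.0156). The lower gene was the transporter gene Slc6a13, at 0.190 and 0 FPKM in Pd1CKO 2 and control 2, against 3.40 and 2.43 FPKM in Pd1CKO 1 and control 1 (-1.83, adjusted p = 0.00294). Of 9 genes of glutamate loading and uptake, 6 were higher and 0 lower (median 0.36), with the neuronal transporter gene Slc1a1 first (1.07, adjusted p = 0.00322). Of 5 glycine supply genes, 1 was higher and 3 were lower (median -0.42), among them Shmt1 (-0.95) and Gldc (-0.77), enzymes that make and break down glycine. Of 7 chloride transport genes, 2 were higher and 1 lower (median 0.05). The chloride exporter gene Slc12a5, encoding KCC2, had 8.22 and 8.88 FPKM in Pd1CKO 2 and control 2, against 5.86 FPKM in each replicate 1 library (0.48, adjusted p = 0.0178). The importer gene Slc12a2, encoding NKCC1 and picked after its values were seen, had 7.80 and 8.14 FPKM in Pd1CKO 2 and control 2, against 9.54 and 6.54 FPKM in Pd1CKO 1 and control 1 (0.01, adjusted p = 0.973). Of 4 genes for editing of receptor transcripts, 2 were higher and 0 lower, including Adarb1, whose enzyme edits the Gria2 transcript (0.55, adjusted p = 0.0361). No gene of these 9 lists passed the test between Pd1CKO and control.

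**Figure D5:**
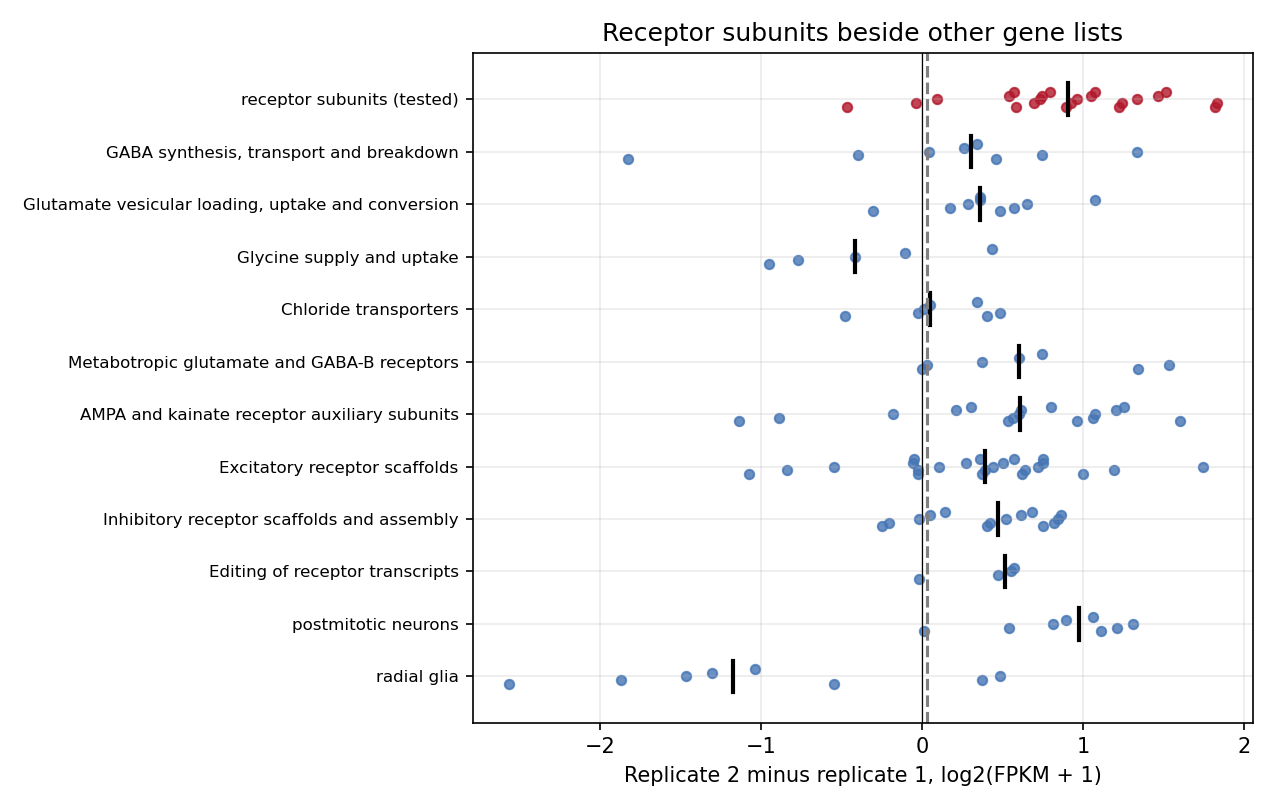
Replicate 2 minus replicate 1 difference in log2(FPKM + 1) for the 22 tested receptor genes, the genes of 9 related lists and 2 marker lists, 1 point per gene. Vertical bars are list medians, and the dashed line is the median of all genes tested, 0.03. The receptor genes have a median of 0.91, postmitotic neuron markers 0.98 and radial glia markers -1.17.

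Markers of several cell types moved with replicate number beside the receptor genes. The counts below stand beside 16.5% higher and 18.5% lower of all genes tested, and some lie near these shares. Postmitotic neuron markers were higher in 6 of 8 cases and lower in 0 (median 0.98), and summed to 2061 and 2099 FPKM in Pd1CKO 2 and control 2, against 1090 and 1595 FPKM in Pd1CKO 1 and control 1. Radial glia markers were higher in 2 of 8 cases and lower in 6 (median -1.17), with sums of 592 and 609 FPKM in Pd1CKO 2 and control 2, against 841 and 892 FPKM in Pd1CKO 1 and control 1. Intermediate progenitor markers were lower in 2 of 3 cases. Markers of GABAergic and ventral telencephalic neurons, a list that shares Gad1 and Gad2 with the GABA synthesis list, were higher in 1 of 8 cases and lower in 3, and those of glutamatergic cortical neurons higher in 1 of 5 and lower in 0. Meningeal markers were lower in 4 of 4 cases, with sums of 1.76 and 1.06 FPKM in Pd1CKO 2 and control 2, against 49.9 and 28.8 FPKM in Pd1CKO 1 and control 1, and endothelial markers were lower in 3 of 4. Diencephalic markers passed the test in 0 of 4 cases and summed to 8.74 and 11.97 FPKM in Pd1CKO 2 and control 2, against 9.73 and 37.0 FPKM in Pd1CKO 1 and control 1. Erythroid markers were higher in 1 of 4 cases and lower in 2, forebrain identity genes lower in 3 of 4, and Cajal-Retzius markers higher in 2 of 4 and lower in 1. Markers of choroid plexus, microglia and oligodendrocyte precursors passed the test in 0 cases, and choroid plexus markers summed to 338 and 18.1 FPKM in Pd1CKO 2 and control 2, against 269 and 196 FPKM in Pd1CKO 1 and control 1. The 3 retina and eye markers summed to at most 1.40 FPKM in any library. No marker in the table stood at 0 in every library. The part of these cell types in the receptor differences was not tested.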

How the data were processed

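RNA was extracted with Trizol and enriched with oligo(dT), per the labels' protocols. The submitters' processing notes name fastp, FastQC, HISAT2, TopHat, featureCounts, StringTie and mm10, with no roles or versions. The authors deposited FPKM values per gene and no raw counts. Fragments were recovered from FPKM and Gencode M21 exon-union lengths, and 99.5% to 99.6% of values under 200 fragments were whole within 0.1. Genes averaging 1 FPKM or more were tested on log2(FPKM + 1) with limma 3.58.1 in R 4.3.3 (trended prior, Benjamini-Hochberg over all genes tested, two-sided, adjusted p under 0.05). A log2 difference on this scale understates the change of low genes. Genotype and replicate number were each fitted alone, on all 4 libraries, and the fit was tested on simulated data. The simulated genotype comparison had no replicate number difference, so it does not show how well genotype differences are found here. Nothing says that the libraries are separate litters, so p-values measure the spread between these libraries. An exact permutation test of 2 against 2 cannot go below p = 0.3333.

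The members and gene lists were chosen with earlier results of these data known, and the replicate number comparison was made because those results showed it. Members with a mean of at least 1 FPKM are named, except that some genes are counted but not reported individually here, and from each related list genes among the 4 with the smallest p. Exact 95% intervals from fragments cover counting error only, since reads without molecular identifiers are not independent molecules. Alternatives were the pseudocount, the filter, scaling, limma-voom on fragments, a robust prior, a second term, shares of fragments in place of FPKM, leaving out each library and, added after seeing the data, removal of length and GC trends by loess. Protein sequence features were not analysed here. Promoter windows are RefSeq's, for GRCm38.p6.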

Additional observations from a re-analysis of the deposited data

How the results depend on the processing

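With each alternative in turn, no receptor gene was called between Pd1CKO and control. Samples with the same replicate number deviated together from their group means (r = 0.799), but with 2 pairs and no label for the number this does not establish a pairing. With the replicate block, 5 of all genes (3 higher, 2 lower) and 0 receptor genes were called between genotypes. Leaving out each library in turn, the genotype difference ran from -0.56 to 0.98 for Gria2, -0.69 to 0.45 for Gabra2, -0.56 to 0.92 for Grin2b, -0.18 to 0.50 for Glrb and -0.24 to 0.59 for Grik1, and the median of the tested members from -0.48 to 0.48. Each of these fits leaves a genotype with a lone library, so the replicate number difference enters its genotype difference. The ranges therefore do not show how stable the genotype differences are. The median replicate number difference of the tested members was 0.91 and stayed positive, at 1.25 on TPM values, 0.68 with length and GC trends removed, 1.26 with limma-voom, 0.74 with a filter of 0.5 FPKM, 0.70 with no filter, 1.23 with a pseudocount of 0.1, 1.03 with 0.5, and 0.91 to 0.95 leaving out each library. Calls over all genes went from 4877 to 2976 with no filter and ran from 2614 to 6850 leaving out each library. Calls among members ran from 13 to 19 that way. Limma-voom called 28 higher and 2 lower of 35 members, beside 2974 (16.9%) and 2918 (16.6%) of 17627 genes, and the filter of 0.5 FPKM 22 higher and 2 lower of 29, beside 2352 (14.6%) and 2674 (16.6%) of 16109. Grin2d changed sign on TPM values (0.06), with length and GC trends removed (0.61) and on leaving out libraries (-0.09 to 0.01), and Grik4 ran from -0.04 to 0.21. With a library left out, the lone library of a side is assumed to vary like the others. Members with at most 13 fragments are too shallow for any comparison. Except where stated, causes of these shifts were not tested.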
